A study of Mus musculus with 6 samples.

Results

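CircRNAs from genes of the cytoskeleton and its motor proteins were examined in the striatum of mice without HuD. CircRNAs are circles of RNA that form when the splice donor of an exon is joined to an upstream splice acceptor, and HuD is an RNA-binding protein of neurons encoded by Elavl4. A circRNA was taken when its host gene symbol began with a listed prefix of a motor, tubulin, actin or membrane skeleton gene, for example Kif, Myo, Dnah, Dync, Map2 or Ank1, and when it stood in the study's deposited tables of circRNAs higher or lower in HuD KO or on its list of circRNAs bound by HuD. This gave 72 circRNAs from 50 host genes. They were 2.36% of the 3056 circRNAs in those tables or on that list, called known-host circRNAs below. The array held 14236 circRNA probes, and the host genes of the other probes were not known here. Of the 72, 22 stood in the higher table, 32 in the lower table and 19 on the HuD-bound list, with 1 (Dync1h1 mmu_circRNA_25853) both in the higher table and on the list.

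The 2 groups were 3 HuD KO (Elavl4-/-) and 3 wild type (WT) littermate adult male mice of the C57BL6 strain, with 1 array per mouse and no other treatment named in the labels. Total RNA of the striatum was treated with RNase R, which digests linear RNA, and was amplified with random primers, labelled with Cy3 and hybridised. The HuD-bound list came from other mice, transgenic for myc-tagged HuD under the Camk2a promoter, which is active in forebrain neurons, by immunoprecipitation with an antibody to the tag.

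Kinesins and cytoplasmic dynein carry cargo along microtubules, and myosins move along or tether to actin filaments. In neurons these motors, with the microtubule-associated proteins, the tubulin-modifying enzymes and the ankyrin-based membrane skeleton, sort organelles, RNA granules and receptors into axons, dendrites and spines and hold the shape of these processes. Axonemal dyneins differ from these in that they drive the beating of motile cilia, which in the brain are carried by the ependymal cells lining the ventricles.

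On each array a circRNA was read by 1 probe of 60 bases. The first 6 probe sequences shown are those of the HuD-bound circRNAs that rose in HuD KO, and they come from Dync1h1 (chr12:110651490-110652194, + strand), Ttbk2 (chr2:120806758-120825315, - strand), Dst (chr1:34086241-34117524, + strand), Kif5c (chr2:49671751-49710868 and chr2:49732703-49752353, + strand) and Myo5a (chr9:75116185-75123055, + strand). The positions are those of the circRNAs as deposited, and the genome build is not stated. In a GRCm38 gene table all 72 circRNAs lay inside the span of their host gene. All 6 are of the exonic class.
Dync1h1 mmu_circRNA_25853: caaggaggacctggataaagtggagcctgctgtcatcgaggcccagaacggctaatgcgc
Ttbk2 mmu_circRNA_002077: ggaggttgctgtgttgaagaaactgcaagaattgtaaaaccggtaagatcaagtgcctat
Dst mmu_circRNA_008397: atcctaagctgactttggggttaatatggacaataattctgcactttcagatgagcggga
Kif5c mmu_circRNA_33526: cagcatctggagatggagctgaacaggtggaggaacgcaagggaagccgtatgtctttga
Kif5c mmu_circRNA_33536: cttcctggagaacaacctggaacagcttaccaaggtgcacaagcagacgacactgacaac
Myo5a mmu_circRNA_011066: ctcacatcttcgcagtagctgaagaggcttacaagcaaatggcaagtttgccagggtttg

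The next pair is shown because the probes share sequence. Both circRNAs come from Myo9a on the + strand of chromosome 9, start at the same deposited base and end apart (chr9:59801913-59832308 and chr9:59801913-59843138), and capitals mark the run of 27 bases that their probes have in common, so that their values are not independent. It was the longest run shared by the probes of any 2 members of a host gene, and the others shared 8 bases or fewer.
Myo9a mmu_circRNA_000203: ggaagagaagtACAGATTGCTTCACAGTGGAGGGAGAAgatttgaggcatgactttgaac
Myo9a mmu_circRNA_000280: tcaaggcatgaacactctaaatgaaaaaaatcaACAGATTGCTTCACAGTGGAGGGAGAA

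Hu proteins are known to bind AU-rich and U-rich stretches of RNA. The letters ATTTA, searched in the probe sequences on both strands, were present as printed in 1 of the 72 probes (1.39%), that of the HuD-bound Ank2 mmu_circRNA_36126 (chr3:126953176-126981944, - strand), where capitals mark it. They were present on the other strand in 4 probes (5.56%). Of all 3056 known-host circRNAs, 127 (4.16%) had them as printed and 107 (3.50%) on the other strand. A probe covers only part of a circRNA.
Ank2 mmu_circRNA_36126: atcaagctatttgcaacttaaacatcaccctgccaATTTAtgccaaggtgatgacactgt

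The last pairs come from host genes whose circRNAs differed in level change. From Kif13b, 1 circRNA (chr14:64757413-64758708, + strand) was higher and another (chr14:64779313-64788519, + strand) was lower in HuD KO. From Dstn, an exonic circRNA (chr2:143938384-143940028, + strand) and one of the opposite strand (chr2:143938457-143938574, - strand) overlapped by 117 bases as deposited.
Kif13b mmu_circRNA_27707: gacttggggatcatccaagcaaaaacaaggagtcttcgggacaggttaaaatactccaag
Kif13b mmu_circRNA_27709: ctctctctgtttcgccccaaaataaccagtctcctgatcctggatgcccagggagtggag
Dstn mmu_circRNA_34706: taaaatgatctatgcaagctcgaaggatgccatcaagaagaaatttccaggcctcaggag
Dstn mmu_circRNA_010498: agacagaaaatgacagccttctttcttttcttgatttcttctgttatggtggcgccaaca

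The share of circRNA probes well above background was 84.0% to 96.7% per array, and 70 of the 72 members were well above it on all 6. The exceptions were Kif9 mmu_circRNA_45140 and Dstyk mmu_circRNA_20869, which were well above background on HuD KO replicates 2 and 3 but not on replicate 1. All WT arrays came from 1 scan, HuD KO replicates 1 and 2 from another and replicate 3 from the third, so scan and genotype cannot be told apart, and HuD KO replicate 3 stood apart from the other HuD KO arrays in many members, as given with their values. Elavl4 had no circRNA in the deposited tables or on the HuD-bound list. The striatal neuron genes Drd1, Drd2, Ppp1r1b, Rgs9, Penk and Adora2a had none there either. Any other probes of these genes could not be recognised, so the deletion and the tissue were not checked from their circRNAs. Of the genes of other cell types looked for, the astrocyte transporter Slc1a2 had 1 (HuD-bound, log2 change 0.70) and the endothelial gene Pecam1 had 2 (lower table, log2 changes -2.47 and -2.04), and their part in the results was not tested. Levels are given as log2 intensity on a scale where 0 is the 75th percentile of an array's circRNA probes, and changes as HuD KO minus WT on that scale. Probes differ in brightness, so levels are compared only within a circRNA.

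By role of the host gene, the 72 circRNAs were 17 of kinesins, 13 of myosins, 12 of dyneins, 9 of spectraplakins and microtubule-associated proteins, 8 of tubulins and their enzymes, 6 of actin regulators, 4 of the membrane skeleton and 3 of centrosome genes. Among the 54 in the deposited tables, 40.7% were in the higher table, against 45.8% of all 2488 circRNAs there. These tables were made from the same 6 arrays by fold change and p, so their values are given as a description, with no test. In the main values all 22 of the higher table lay above 0 and all 32 of the lower table below 0, with no overlap between the groups in any of them, which the choice of the tables nearly fixes. Of all 13445 tested probes, 69.5% did not overlap, 29.7% in the higher direction and 39.9% in the lower. The median change was 1.48 in the higher table and -2.26 in the lower, and with normexp background correction these were 0.73 and -1.41. The signs of all 54 were the same under each of 6 ways of scaling the arrays, which the choice of the tables also nearly fixes. The letters of a prefix also took in Cept1, an enzyme of phospholipid synthesis, Dstyk, a protein kinase, and Dstn, the actin-severing protein destrin, which stand among the centrosome and spectraplakin groups only by name.

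**Figure D1:**
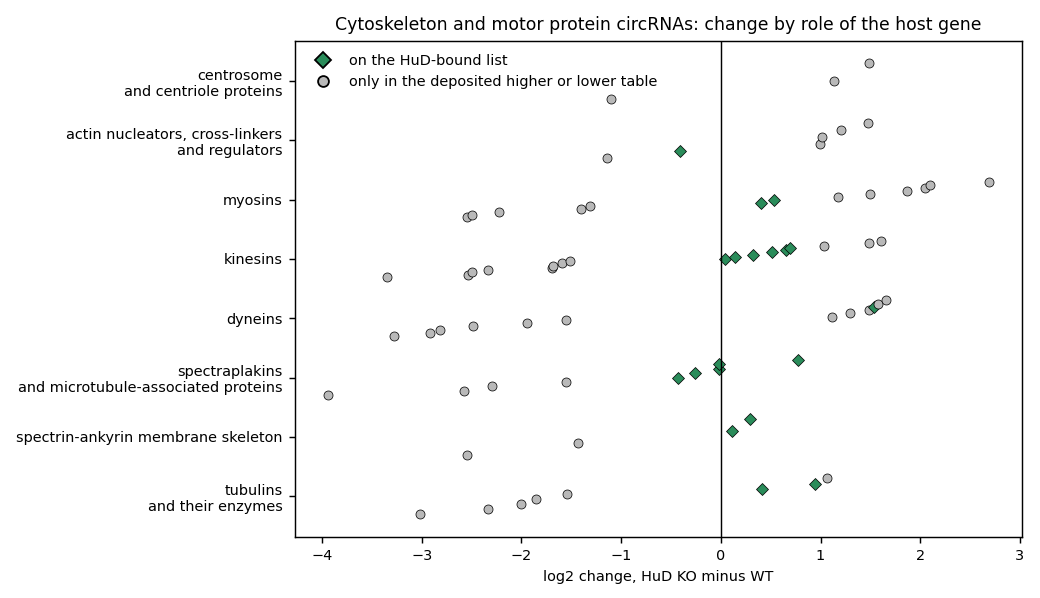
Log2 change (HuD KO minus WT, from log2 intensity, with 0 at the array's 75th percentile) of each of the 72 circRNAs, by role of the host gene, with 1 point per circRNA: diamonds are the 19 on the HuD-bound list and circles those only in the deposited tables. The diamonds span -0.43 to 1.53, while the circles lie between -3.94 and -1.10 or between 0.99 and 2.69. With scaling on control probes 17 of the 19 diamonds lie below 0, against 5 here.

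HuD KO was tested against WT on the 19 members of the HuD-bound list, where genotype and scan cannot be told apart. The list came from immunoprecipitation in other mice, 1 of the 19 also stands in the higher table, and the host gene prefixes were chosen with earlier results of these arrays known. At a limma adjusted p under 0.05 over all 13445 probes, 6 of the 19 rose in HuD KO (31.6%) and none fell, while 26.2% of all tested probes were called higher and 37.2% lower. At an unadjusted p under 0.05, limma gave 8 of the 19 higher and 1 lower. The shares of all tested probes at that threshold were not counted, but cannot be below 26.2% and 37.2%. The methods' t-test after adjustment called 5 of the 19 higher and 1 lower (Map4 mmu_circRNA_45112). Over all probes it called 3093 higher and 4448 lower. With limma on only the probes well above background on all 6 arrays, 7 of the 19 were called higher and 0 lower. Over all these probes 3540 were called higher and 3716 lower, with a median change of 0.02. In the main values the median change of the 19 was 0.33, against -0.11 over all tested probes, and 14 of the 19 lay above 0. The groups did not overlap in 9 of the 19, 6 higher and 3 lower. Of all tested probes, 69.5% did not overlap, 29.7% higher and 39.9% lower, so a lack of overlap does not set these members apart. The list as used here holds 658 circRNAs, fewer than the study names, and the rest were not analysed. Of its other 638 tested circRNAs, 42.9% were called higher and 14.4% lower, with a median change of 0.37. In bulk striatum, fewer cells of a type and less RNA per cell cannot be told apart. The 2 kinesin, 1 myosin, 1 dynein, 1 spectraplakin and 1 tubulin kinase circRNAs that rose are described first.

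Dync1h1 encodes the heavy chain of cytoplasmic dynein, the motor of retrograde transport. Its mmu_circRNA_25853 measured 0.29, 0.02 and 0.21 on the WT arrays and 1.82, 1.65 and 1.66 on the HuD KO arrays. The lowest HuD KO array lay well above the highest WT array. It rose by 1.53 ± 0.14 (SE, n = 3 per group) with a limma adjusted p of 9.4e-05, the largest rise among the 19, and stayed above 0 and called in all 17 alternatives, between 0.75 and 2.05.

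Ttbk2 is a kinase that phosphorylates tau and tubulin and starts the assembly of primary cilia. Its mmu_circRNA_002077 measured 2.57, 2.46 and 2.69 on the WT arrays and 3.79, 3.47 and 3.29 on the HuD KO arrays, with no overlap between the groups, and rose by 0.94 ± 0.17 (SE; limma adjusted p = 0.00187). A second Ttbk2 circRNA from another stretch of the gene, mmu_circRNA_34361, measured -0.10, -0.34 and -0.26 on the WT arrays and -0.10, 0.21 and 0.43 on the HuD KO arrays. Its lowest HuD KO array lay at the highest WT array, and its change of 0.41 ± 0.17 (SE) did not pass the test (limma adjusted p = 0.0683). Without HuD KO replicate 1 this change was 0.55 and was called (limma adjusted p = 0.0252), and without replicate 3 it was 0.29. Dst encodes dystonin, a spectraplakin that links microtubules to actin and intermediate filaments. Its mmu_circRNA_008397 measured 0.48, 0.57 and 0.65 on the WT arrays and 1.39, 1.43 and 1.22 on the HuD KO arrays, again without overlap, and rose by 0.78 ± 0.14 (SE; limma adjusted p = 0.00169).

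Kif5c encodes a kinesin-1 heavy chain found mainly in neurons, a motor of axonal and dendritic cargo, and 3 of its circRNAs were on the list. The circRNA mmu_circRNA_33536, which does not overlap the other two in the gene, measured 1.94, 1.72 and 1.87 on the WT arrays and 2.40, 2.49 and 2.60 on the HuD KO arrays and rose by 0.65 ± 0.14 (SE; limma adjusted p = 0.00409). The circRNA mmu_circRNA_33526 measured -1.40, -1.33 and -0.97 on the WT arrays and -0.37, -0.22 and -1.03 on the HuD KO arrays. It rose by 0.69 ± 0.24 (SE; limma adjusted p = 0.0332), but HuD KO replicate 3 lay among the WT arrays, and without that array the change was 0.94. This call was lost without HuD KO replicate 1 or 2 or without WT replicate 1 or 2, where the change ranged from 0.53 to 0.65, with the methods' t-test (adjusted p = 0.104), and with normexp background correction, where the change was 0.38 (limma adjusted p = 0.0849). The third, mmu_circRNA_33527, lies within the span of mmu_circRNA_33526 and measured -0.78, -0.96 and -0.56 on the WT arrays and -0.45, -0.27 and -0.60 on the HuD KO arrays, with overlapping groups and a change of 0.33 ± 0.16 (SE; limma adjusted p = 0.117).

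Myo5a encodes the myosin that carries organelles and receptors into dendritic spines. Its mmu_circRNA_011066 measured -1.10, -0.92 and -1.16 on the WT arrays and -0.79, -0.48 and -0.32 on the HuD KO arrays. The groups did not overlap, and the rise of 0.53 ± 0.17 (SE) had a limma adjusted p of 0.0236, which was lost without HuD KO replicate 2, WT replicate 1 or WT replicate 3 at changes of 0.48 to 0.51, and with normexp background correction at 0.27 (limma adjusted p = 0.0568). A second Myo5a circRNA, mmu_circRNA_44637, measured -0.45, -0.48 and -0.68 on the WT arrays and -0.56, -0.09 and 0.25 on the HuD KO arrays, with HuD KO replicate 1 within the WT range. Its change was 0.41 ± 0.22 (SE; limma adjusted p = 0.133). Without HuD KO replicate 1 it was 0.62 and was called (limma adjusted p = 0.0218), and without HuD KO replicate 3 it was 0.21.

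**Figure D2:**
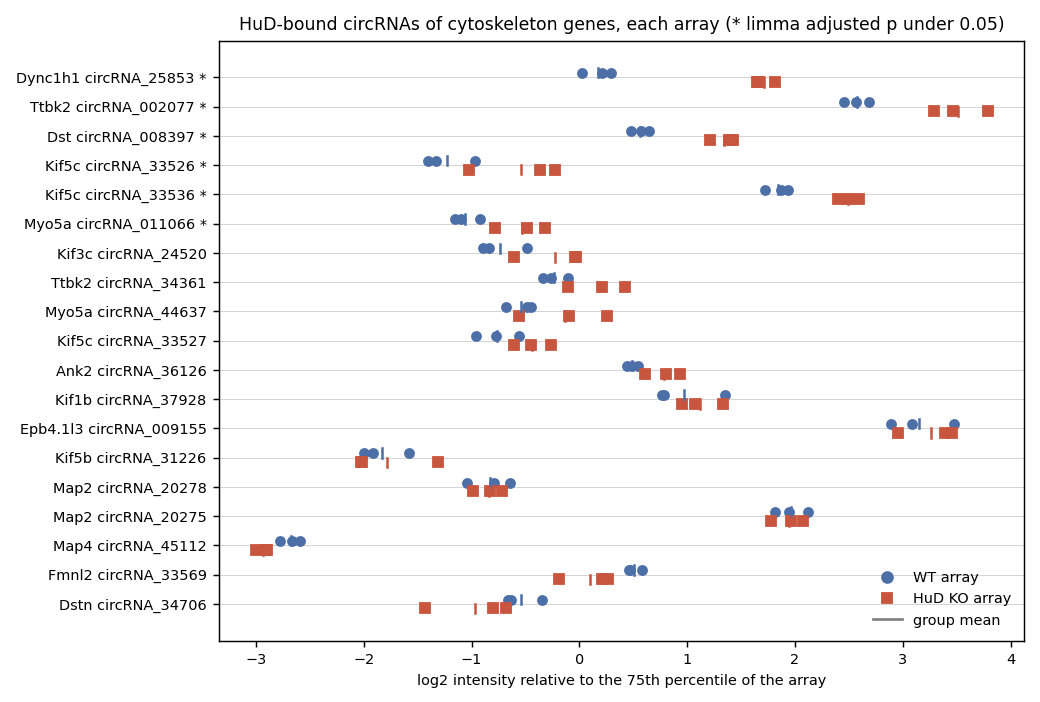
Level of the 19 HuD-bound circRNAs on each array (log2 intensity, with 0 at the array's 75th percentile), with circles for the 3 WT arrays, squares for the 3 HuD KO arrays, short lines for group means and an asterisk for a limma adjusted p under 0.05. Dync1h1 mmu_circRNA_25853 at the top separates the groups by 1.53, and both Map2 circRNAs differ by 0.02 or less; with arrays scaled on control probes all but the top 2 lie below 0.

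The other kinesins of the HuD-bound list did not pass the test. Kif3c, a subunit of kinesin-2, had mmu_circRNA_24520 at -0.48, -0.84 and -0.89 on the WT arrays and -0.04, -0.03 and -0.61 on the HuD KO arrays, a change of 0.51 ± 0.21 (SE; limma adjusted p = 0.059), and without HuD KO replicate 3 the change was 0.70 and was called (limma adjusted p = 0.00743), as it was without WT replicate 1 (0.64, limma adjusted p = 0.0492). Kif1b, a motor of synaptic vesicle precursors and mitochondria, differed by 0.15 ± 0.20 (SE) in mmu_circRNA_37928, and Kif5b, the widely expressed kinesin-1 heavy chain, by 0.04 ± 0.23 (SE) in mmu_circRNA_31226. In both the groups overlapped.

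Map2 is the microtubule-associated protein that marks dendrites. Its mmu_circRNA_20275 measured 1.95, 1.82 and 2.12 on the WT arrays and 2.08, 1.97 and 1.78 on the HuD KO arrays, and its mmu_circRNA_20278, which overlaps it in the gene, differed by -0.01 ± 0.16 (SE). Neither circRNA showed a difference larger than the spread between arrays, with changes of -0.02 and -0.01. The circRNA of Map4, a microtubule-stabilising protein, mmu_circRNA_45112, measured -2.78, -2.67 and -2.60 on the WT arrays and -2.90, -2.91 and -3.00 on the HuD KO arrays. The groups did not overlap, yet the change of -0.25 ± 0.13 (SE) did not pass (limma adjusted p = 0.123).

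In the membrane skeleton, Ank2 encodes ankyrin-B, an adaptor between membrane proteins and spectrin. Its mmu_circRNA_36126 measured 0.49, 0.44 and 0.55 on the WT arrays and 0.80, 0.93 and 0.61 on the HuD KO arrays, all HuD KO arrays above all WT arrays, and its change of 0.29 ± 0.14 (SE; limma adjusted p = 0.11) passed as higher in 4 of the 17 alternatives, among them without HuD KO replicate 3 (0.38, limma adjusted p = 0.0317), and as lower with control probe scaling (-0.49, limma adjusted p = 0.0277). Epb4.1l3, a protein 4.1 that ties membrane proteins to actin, differed by 0.12 ± 0.21 (SE) in mmu_circRNA_009155 with overlapping groups. The lowest changes of the list came from actin regulators. Fmnl2, a formin that elongates actin filaments, had mmu_circRNA_33569 at 0.58, 0.47 and 0.46 on the WT arrays and 0.27, 0.21 and -0.19 on the HuD KO arrays, a change of -0.41 ± 0.16 (SE; limma adjusted p = 0.0578) that was called without HuD KO replicate 1 (-0.49, limma adjusted p = 0.0487) and was -0.27 without HuD KO replicate 3 (limma adjusted p = 0.0911). Dstn mmu_circRNA_34706 measured -0.34, -0.66 and -0.63 on the WT arrays and -0.80, -0.68 and -1.43 on the HuD KO arrays, a change of -0.43 ± 0.22 (SE; limma adjusted p = 0.123) that was -0.20 without HuD KO replicate 3.

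The scaling of the arrays moved all of these changes. The median change of all tested probes was -0.11 with the 75th percentile, -0.18 with normexp background correction, 0.09 with the median, 0.12 with quantile normalization, 0.41 unscaled and -0.89 relative to the 14 control circRNA probes. The median of the 19 HuD-bound members moved with it and was above that of all probes in each, at 0.33, 0.25, 0.53, 0.42, 0.84 and -0.46. Relative to the control probes only 2 of the 19 lay above 0, with 1 called higher (Dync1h1 mmu_circRNA_25853) and 9 called lower. Of the 13445 tested probes, 612 were then called higher and 8478 lower. With no scaling all 19 lay above 0 and 12 were called higher, where 5348 of the 13445 probes were called higher and 2552 lower.

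**Figure D3:**
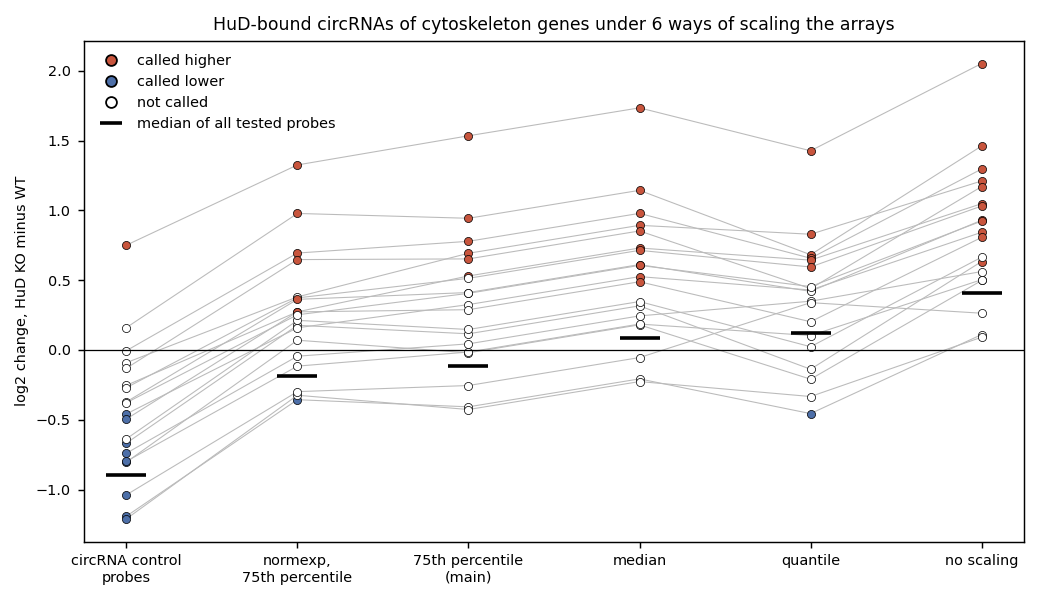
Log2 change (HuD KO minus WT) of the 19 HuD-bound circRNAs under 6 ways of scaling the arrays, with 1 line per circRNA, filled points for limma adjusted p under 0.05 (red higher, blue lower), open points for those not called and black bars for the median of all tested probes. The bars run from -0.89 with control probes to 0.41 with no scaling, and the circRNAs move with them.

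The dynein circRNAs among the members split by family. CircRNAs of these genes that were in neither table and not on the HuD-bound list are not seen here. The counts therefore cover members, not whole families, and this holds for the other families below. All 6 members from axonemal dynein heavy chains, of 5 host genes (Dnah7a, Dnah7b, Dnah9, Dnah12 and Dnah17), were in the lower table. Their changes were -3.28 to -1.55, with a median of -2.65. Dnah7a mmu_circRNA_20079 measured -0.90, -0.75 and -1.10 on the WT arrays and -4.11, -4.11 and -4.36 on the HuD KO arrays, a change of -3.28, and Dnah12 mmu_circRNA_27263 measured -0.25, -0.03 and -0.22 on the WT arrays and -3.64, -3.00 and -2.60 on the HuD KO arrays, a change of -2.92. In both the HuD KO arrays lay far below the WT arrays, and the HuD KO range was wider in Dnah12. On HuD KO replicate 1 the Dnah7a reading of -4.11 lay near -4.30, that array's lowest value well above background. With normexp background correction the changes were -1.46 in Dnah7a mmu_circRNA_20079 and -1.63 in Dnah12 mmu_circRNA_27263. In the deposited values they were -1.84 and -2.06. All 3 members from cytoplasmic dynein 1, of Dync1h1 and its light intermediate chain gene Dync1li1, were in the higher table. So were all 3 members from Dync2h1, the dynein that returns cargo from the tip of cilia. The changes of these Dync members were 1.12 to 1.66. Dync2h1 mmu_circRNA_015287 measured -0.54, -0.35 and 0.15 on the WT arrays and 1.61, 1.60 and 1.04 on the HuD KO arrays, a change of 1.66, and Dync1li1 mmu_circRNA_45220 measured -3.41, -3.36 and -2.97 on the WT arrays and -1.67, -1.42 and -1.92 on the HuD KO arrays, a change of 1.58. The other Dync2h1 circRNAs differed by 1.48 (mmu_circRNA_43704) and 1.29 (mmu_circRNA_43722), and the latter overlaps mmu_circRNA_015287 by 1401 bases. The signs were the same under the 6 scalings, where the axonemal group lay between -4.06 and -1.04 and the others between 0.34 and 2.18. The choice of the tables by change on these same arrays nearly fixes these signs. Dync1li1 mmu_circRNA_45220 was 0.47 with normexp background correction.

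Among myosins, the 5 members from Myo9a were all in the higher table. Myo9a encodes an unconventional myosin. Its mmu_circRNA_005647 had the largest positive change of the 72, 2.69, with -1.13, -1.22 and -1.37 on the WT arrays and 1.64, 1.60 and 1.09 on the HuD KO arrays, and mmu_circRNA_000203 measured 0.12, 0.09 and 0.13 on the WT arrays and 2.08, 2.18 and 2.39 on the HuD KO arrays, a change of 2.10. The other Myo9a circRNAs differed by 2.05 (mmu_circRNA_44340), 1.87 (mmu_circRNA_000280) and 1.50 (mmu_circRNA_44364). Each of the 5 overlaps a neighbour in the gene, so they are not separate observations. Of the 8 other myosin circRNAs, 5 were in the lower table, from Myo1d, Myo1e, Myo5b and Myo6. Myo18a mmu_circRNA_23775 was in the higher table at a change of 1.17, which was 0.32 with normexp background correction. The Myo5a circRNAs given above were the rest. Myo5b, which recycles membrane to the surface, had mmu_circRNA_31968 at 0.87, 1.18 and 1.35 on the WT arrays and -1.44, -1.32 and -1.48 on the HuD KO arrays, a change of -2.55. Myo6, the myosin that moves toward the minus end of actin and acts in endocytosis, had mmu_circRNA_44719 at 1.12, 1.72 and 1.85 on the WT arrays and -0.89, -0.90 and -1.02 on the HuD KO arrays, a change of -2.50. In both the 3 HuD KO arrays lay close together and below all WT arrays.

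**Figure D4:**
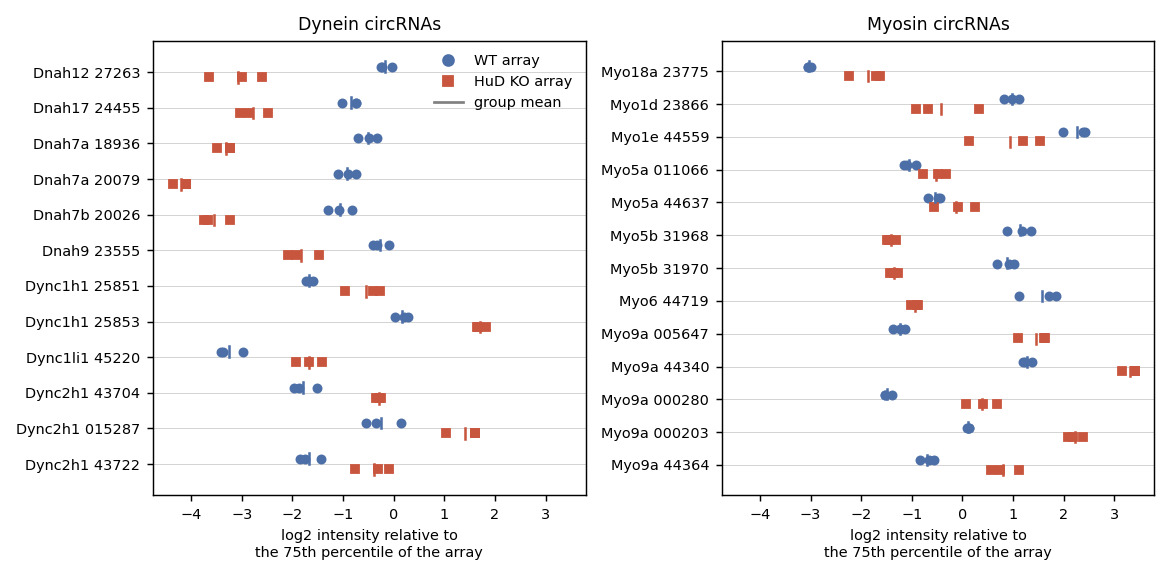
Level of the dynein circRNAs (left) and the myosin circRNAs (right) on each array (log2 intensity, with 0 at the array's 75th percentile), with circles for the 3 WT arrays, squares for the 3 HuD KO arrays and short lines for group means. The 6 Dnah members lie lower in HuD KO by 1.55 to 3.28, while the 6 Dync members lie higher by 1.12 to 1.66. The 5 Myo9a members lie higher by 1.50 to 2.69. These signs hold under the 6 scalings, which the choice of the deposited tables nearly fixes. The Myo5a circRNAs turn with control probe scaling.

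Kinesin circRNAs stood on both sides. Kif21a encodes a kinesin that pauses microtubule growth, and its mmu_circRNA_28955 measured 6.75, 6.99 and 7.01 on the WT arrays and 4.0, 3.75 and 2.95 on the HuD KO arrays, a change of -3.35, with HuD KO replicate 3 the lowest. The circRNA of the opposite strand of Kif26b, a kinesin without motor activity, mmu_circRNA_21402, measured -1.30, -1.29 and -1.48 on the WT arrays and -4.17, -4.12 and -3.40 on the HuD KO arrays, a change of -2.54. Its HuD KO replicate 1 lay near -4.30, that array's lowest value well above background. The change was -1.15 with normexp background correction and -1.39 in the deposited values. Both members from Kif16b, the kinesin that moves early endosomes, were in the higher table at changes of 1.60 (mmu_circRNA_34689) and 1.48 (mmu_circRNA_34690). They overlap by 123 bases. Their WT means were low, at -3.35 and -3.25, and with normexp background correction their changes were 0.37 and 0.41. The remaining lower members came from Kif9, Kif13b, Kif23, Kif26b, Kif27 and Kif3c, with Kif9 mmu_circRNA_45140, a kinesin of motile cilia, at -1.40, -1.15 and -1.39 on the WT arrays and -4.47, -3.85 and -3.11 on the HuD KO arrays and a change of -2.50 that includes HuD KO replicate 1, where it was not well above background.

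Of the 5 members from tubulin ligases (Ttll), enzymes that add glutamate or glycine chains to tubulin tails, 4 were in the lower table. Ttll5 mmu_circRNA_25559 measured 2.38, 2.33 and 1.84 on the WT arrays and -1.15, -0.79 and -0.55 on the HuD KO arrays, a change of -3.01, and Ttll8 mmu_circRNA_28916 measured 1.33, 1.45 and 1.17 on the WT arrays and -1.35, -1.33 and -0.39 on the HuD KO arrays, a change of -2.34. The exception was the neuronal polyglutamylase Ttll7, whose mmu_circRNA_36285 differed by 1.06. All 4 members from the formins Fmn1, Fmn2 and Diap2, which nucleate actin filaments, were in the higher table at changes of 0.99 to 1.47. The HuD-bound circRNA of the formin Fmnl2, given above, was in neither table and had a change of -0.41. Fmn1 mmu_circRNA_34248 measured -2.06, -2.20 and -1.91 on the WT arrays and -0.37, -0.41 and -0.96 on the HuD KO arrays, and Diap2 mmu_circRNA_45733 measured -1.22, -1.16 and -1.40 on the WT arrays and 0.17, -0.05 and -0.28 on the HuD KO arrays, a change of 1.21. Mical2, an enzyme that oxidises and breaks up actin, had mmu_circRNA_42120 lower by a change of -1.15.

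In the membrane skeleton, Ank1 (erythroid-type ankyrin) mmu_circRNA_42641 measured 0.10, -0.04 and -0.18 on the WT arrays and -2.72, -2.55 and -2.48 on the HuD KO arrays, a change of -2.54, with all arrays of a group close together. The circRNA of the opposite strand of Ank3, the ankyrin of the axon initial segment, mmu_circRNA_22185, differed by -1.43. Map7, which recruits kinesin-1 to microtubules, had an intronic circRNA, mmu_circRNA_21730, at 1.89, 2.15 and 2.17 on the WT arrays and -0.62, -0.71 and 0.66 on the HuD KO arrays, a change of -2.30. Cep63 mmu_circRNA_44988 (centriole duplication) differed by 1.14, Cep85 mmu_circRNA_37769 (a centrosome protein) by -1.10 and Cept1 mmu_circRNA_007135 by 1.49. In the deposited values, the members nearest to the fold threshold of 2 (a difference of 1 on the log2 scale) were Fmn1 mmu_circRNA_34244 (1.02) and Ttll7 mmu_circRNA_36285 (1.06) in the higher table, and Cep85 mmu_circRNA_37769 (-1.02) and Kif27 mmu_circRNA_26403 (-1.05) in the lower. Just outside the tables, the largest HuD-bound rise in the main values was that of Ttbk2 mmu_circRNA_002077 (0.94).

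Some lower members rested unequally on the HuD KO arrays. HuD KO replicate 3 was the highest HuD KO array in 26 of the 32 lower members (81.3%), against 72.6% of the other 1316 circRNAs of the lower table, and it lay a median of 0.53 above the mean of the other HuD KO arrays, against 0.44. The largest gap was in the circRNA of the opposite strand of Dstn, mmu_circRNA_010498, which measured 0.82, 1.24 and 1.44 on the WT arrays and -3.82, -3.80 and -0.70 on the HuD KO arrays, a change of -3.94 that was -4.98 without replicate 3. Kif13b mmu_circRNA_27709 measured 3.64, 3.91 and 4.34 on the WT arrays and 0.91, 0.57 and 3.40 on the HuD KO arrays, a change of -2.33 that was -3.22 without it. In Myo1e mmu_circRNA_44559 the same array was the lowest (1.99, 2.37 and 2.42 on the WT arrays and 1.52, 1.20 and 0.12 on the HuD KO arrays), and the change of -1.31 was -0.90 without it. In the higher table, replicate 3 was the highest HuD KO array in 5 of 22 members (22.7%). All 54 kept their side of 0 without replicate 3, which the choice of the tables by change on these same arrays nearly fixes.

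**Figure D5:**
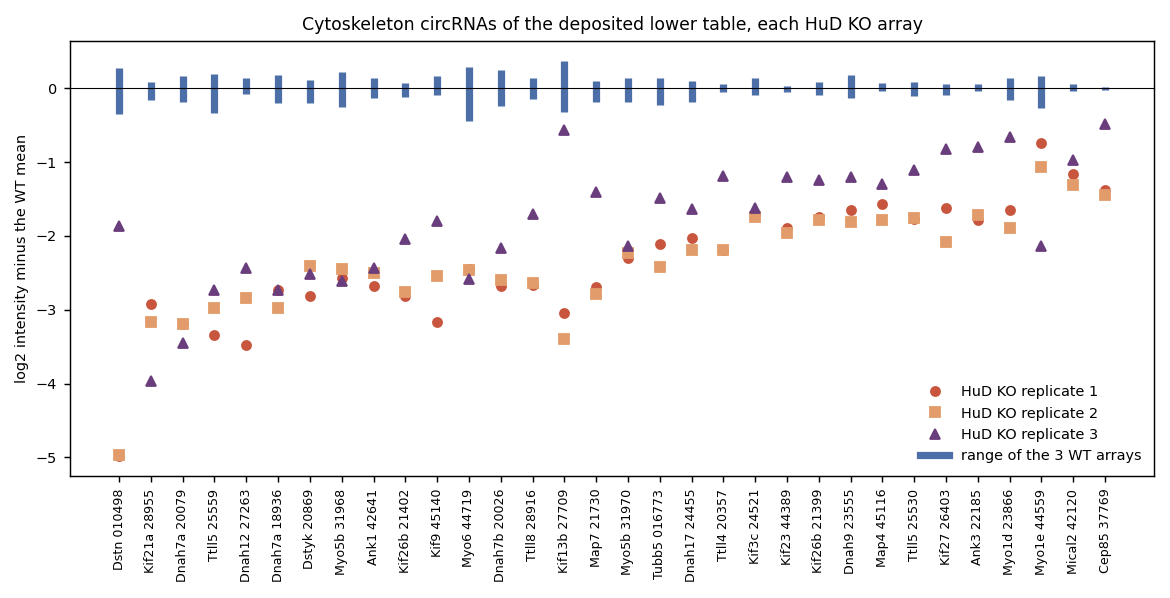
The 32 circRNAs of the lower table, each HuD KO array shown as log2 intensity minus the WT mean (both with 0 at the array's 75th percentile), with a blue bar for the range of the 3 WT arrays. HuD KO replicate 3 (triangles) is the highest of the 3 in 26 of 32. It stands 3.11 above the mean of the other HuD KO arrays in Dstn mmu_circRNA_010498 and 2.66 above in Kif13b mmu_circRNA_27709. All HuD KO points lie below 0, as the group means do under all 6 scalings, which the choice of the table nearly fixes.

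CircRNAs of 1 host gene did not always go together. Of the 17 host genes with 2 or more members, Kif13b had mmu_circRNA_27707 higher by 1.04 and mmu_circRNA_27709 at -2.33. Kif3c had the HuD-bound mmu_circRNA_24520 at 0.51 and a sense overlapping circRNA, mmu_circRNA_24521, at -1.69. Map4 had the HuD-bound mmu_circRNA_45112 at -0.25 and mmu_circRNA_45116, which overlaps it by 10755 bases, at -1.55. By class, 63 of the 72 were exonic, 4 sense overlapping, 4 antisense and 1 intronic, and all 9 that were not exonic were in the lower table. The 4 antisense circRNAs, of Dstn, Ank3, Kif26b and the beta-tubulin gene Tubb5, had changes of -3.94 to -1.43. All 22 higher members were exonic, against 82.9% of the other 1118 circRNAs of the higher table, and 23 of the 32 lower members (71.9%), against 65.9% of the other lower ones. Their median genomic span was 25664 bases in the higher table and 7771 bases in the lower, against 17297 and 8041 bases in the rest of each table.

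A list of 104 further cytoskeleton genes, such as those of the Arp2/3 and WAVE complexes, septins and microtubule-severing enzymes, held 36 genes with 47 known-host circRNAs, 23 of them in the higher table and 13 in the lower. Of all table circRNAs, 45.8% were in the higher table. Of its 16 HuD-bound circRNAs, 8 were called higher and 2 lower, with a median change of 0.55, where 26.2% and 37.2% of all probes were called. Of the HuD-bound circRNAs outside the 72 members, which include these 16, 42.9% were called higher and 14.4% lower, with a median change of 0.37. Those higher included 3 of Actr2, a core subunit of the Arp2/3 actin nucleator (mmu_circRNA_19003 at 1.12 ± 0.19, SE), and Dclk1, a microtubule-binding kinase (mmu_circRNA_35365 at 0.88 ± 0.15, SE). The lower ones were Map1a, a microtubule-associated protein of mature neurons (mmu_circRNA_34414 at -4.30 ± 0.24, SE, also in the lower table), and Tmod2, a neuronal cap of actin filaments (mmu_circRNA_44649 at -0.52 ± 0.14, SE). Abi2 mmu_circRNA_20222, 2 of the Actr2 circRNAs, Katnal1 mmu_circRNA_39707 and Map1a mmu_circRNA_34414 of these also stand in the deposited tables.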

How the data were processed

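The authors hybridised RNase R-treated striatal RNA of 3 HuD KO and 3 WT mice to 1-colour circRNA arrays. The deposited array files hold spot intensity, corrected for background by the scanner software and not normalized between arrays. The authors also deposited tables of circRNAs lower and higher in HuD KO with normalized log2 intensity, whose normalization is not stated in the sources used here. Those tables also hold fold changes, p-values and FDR of the authors' own comparison, which were used for membership only. The submitters' processing notes name limma, without a version. Columns of other samples numbered 0. The deposited tables do not state the build or whether starts are counted from 0 or 1.

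The members, roles and lists were chosen with earlier results of these data known. The circRNAs named were all HuD-bound members, up to 2 largest rises and 2 largest falls of table members per role, all members of host genes with 3 or more, and the 2 nearest the fold threshold in each table, beside members named in the text for a shared host, a class or a single array, which were chosen after their values were seen. Host genes, classes, positions and probe sequences came from the deposited tables and the study's HuD-bound list, from which no value was taken. The letters of probes listed in both were equal.

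The log2 of the corrected intensity was taken relative to the 75th percentile over the circRNA probes of the array, leaving out outlier spots. Probes were kept when all 3 arrays of 1 group or both read them well above background (13458), and 13445 with enough values were tested with limma 3.58.1 in R 4.3.3 (lmFit, eBayes, Benjamini-Hochberg), HuD KO against WT, no covariate, at an adjusted p under 0.05. No member was saturated or an outlier spot. The fit was tested on simulated data. Alternatives were other scalings, normexp with an offset of 50 on the uncorrected median signal and its background (the mean signal named in the plan was not used here), filters on dim probes, the methods' t-test, blocks by replicate and scan, and leaving out each array. The number of arrays limits the precision, and same-numbered animals shared only a number.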

Additional observations from a re-analysis of the deposited data

How the results depend on the processing

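Across the 17 alternatives, Dync1h1 mmu_circRNA_25853 was called higher in all, and Ttbk2 mmu_circRNA_002077, Dst mmu_circRNA_008397 and Kif5c mmu_circRNA_33536 in 16, losing the call with control probe scaling. Myo5a mmu_circRNA_011066 was called higher in 11 and Kif5c mmu_circRNA_33526 in 8. With control probe scaling 4 of the 6 changes called higher in the main values turned below 0: Kif5c mmu_circRNA_33526 (-0.091), Kif5c mmu_circRNA_33536 (-0.13), Myo5a mmu_circRNA_011066 (-0.25) and Dst mmu_circRNA_008397 (-0.0052). Of all 19 HuD-bound members, 14 lay above 0 in the main values and 2 with control probe scaling. The HuD-bound members called higher numbered 11 with median scaling, 12 with no scaling and 1 with control probe scaling, and 4 to 8 when each array was left out. Those called lower numbered 1 with normexp, quantile normalization and the methods' t-test, 9 with control probe scaling and 0 to 1 when each array was left out. Over all probes, median scaling gave 4676 higher and 4274 lower calls, no scaling 5348 and 2552 and control probe scaling 612 and 8478. The median change of the higher table members was 0.73 with normexp, 1.68 with median scaling, 2.0 with no scaling, 0.70 with control probes and 1.32 in the deposited log2 values. That of the lower table members was -1.41, -2.06, -1.74, -3.04 and -1.75 in the same order, -2.03 with quantile normalization, and -2.36 to -1.94 when each array was left out. The cause of these shifts was not tested.

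In the fit with a replicate block, 3208 probes were called higher and 4779 lower, and 6 HuD-bound members were called higher, Kif3c mmu_circRNA_24520 in place of Kif5c mmu_circRNA_33526. Same-numbered arrays did not deviate together (correlations -0.01, -0.03 and -0.08). With the scan as a random block (correlation 0.349), the calls of Kif5c mmu_circRNA_33526 (limma adjusted p = 0.108) and Myo5a mmu_circRNA_011066 (0.0732) were lost, and both calls were also lost with normexp. Leaving out Dstn from the HuD-bound members, chosen after seeing the data, left 6 called higher and 0 lower. Dstn mmu_circRNA_34706 was not called in the main values, so leaving it out could not change these counts. The number of arrays, 3 per group, limits the precision of each change.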
